A study of Mus musculus with 6 samples.

Results

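The genes described here encode the enzymes of glycolysis, the carriers and kinases that set its flux, and other targets of the response to low oxygen, together with the alpha subunits of the hypoxia-inducible factors (HIF). Of 40 listed genes, 35 had a probe set carrying that gene's symbol alone, out of 22180 genes read in all; Aldoa, Eno1, Gpi1, Bnip3l and Ankrd37 were not analysed here. The 35 fell into 14 glycolytic and lactate enzymes, 7 transporters and flux regulators, 12 other hypoxia targets and 2 HIF alpha subunits. Ero1l stands under its current symbol Ero1a.

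RNA came from mouse embryonic stem cells infected with a lentivirus for a short hairpin RNA (shRNA) against Chd4, an shRNA against Mbd3, or a control shRNA. Chd4 and Mbd3 encode subunits of the nucleosome remodeling and deacetylase complex. Each of the 3 lines was read after 4 days of neural differentiation as aggregates (day 4) and as stem cells kept with leukemia inhibitory factor (day 0). The 6 groups were thus the Chd4 knockdown, Mbd3 knockdown and control at day 4, and the Chd4 knockdown, Mbd3 knockdown and control at day 0, with 1 Mouse Gene 2.0 ST array each. All groups, control included, carry a lentiviral shRNA. The strain, the stem cell line, the number of hairpins and whether a sample pooled cultures are not given in the sources used here. Below, the Chd4 or Mbd3 hairpin names that knockdown, whatever its number of hairpins. A difference between 2 arrays has no replicate check, so "higher" and "lower" of single arrays describe those arrays; precision is limited by how few arrays there are. Values are intensities on a linear scale, and differences are of log2 intensities.

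Glycolysis splits glucose into pyruvate, which lactate dehydrogenase can turn into lactate. When oxygen is plentiful, prolyl hydroxylases mark HIF alpha subunits for destruction; when it is scarce, the alpha subunits build up, pair with ARNT and bind DNA at a short core with the letters ACGTG or GCGTG. Their known targets include most glycolytic genes, the glucose and lactate carriers, and the hydroxylases themselves, and pluripotent cells are known for a strongly glycolytic metabolism.

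The array medians ran from 39.6 to 41.4. The hairpin against Chd4 left the Chd4 intensity at 71.3% of control at day 4 and at 29.8% at day 0, and the hairpin against Mbd3 left Mbd3 at 75.5% and 43.0%, so each target was closer to control at day 4. The pluripotency markers Pou5f1, Nanog, Sox2, Zfp42 and Esrrb summed to 4270, 4349 and 2642 in the Chd4 knockdown, Mbd3 knockdown and control at day 4, against 5765 to 6163 on the day 0 arrays. Of the 5, 4 were higher in both knockdowns than in control at day 4, and Sox2 was at log2 differences of -0.32 and -0.11. The neural progenitor markers Sox1, Pax6, Nes, Fabp7 and Hes5 summed to 433 in the Chd4 knockdown, 686 in the Mbd3 knockdown and 3357 in control at day 4, against 224 to 284 at day 0, and 5 of 5 were highest in control at day 4. Neural progenitor signal was thus lower on both day 4 knockdown arrays than on the day 4 control. Summed levels over the 6 arrays ranged from 66.0 to 76.2 for 2 mesoderm markers and from 179 to 233 for 4 endoderm markers. For 5 fibroblast markers they ranged from 235 to 342. The endoderm sum joins genes that differed in direction. At day 4, Gata6 read 64.4 in the Chd4 knockdown, 29.9 in the Mbd3 knockdown and 29.0 in control. Foxa2 read 66.3, 83.8 and 116 in the same order. No gene reads 0 on this scale, and 1 of the 2 mesoderm and 2 of the 5 fibroblast markers stayed under the highest array median throughout. The part of cell makeup in the differences below was not tested, and in bulk RNA fewer cells of a type and less RNA per cell cannot be told apart.

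The 4 genes furthest below control at day 4, in the estimate over both knockdowns given further on, were Egln3, Egln1, Bnip3 and Tpi1. Their upstream sequence is shown because known hypoxia targets are bound near their start. Each run holds the 250 bases before the RefSeq start (GRCm38.p6, minus strand, 5′ to 3′), with ACGTG and its reverse complement CACGT in capitals.
Egln3: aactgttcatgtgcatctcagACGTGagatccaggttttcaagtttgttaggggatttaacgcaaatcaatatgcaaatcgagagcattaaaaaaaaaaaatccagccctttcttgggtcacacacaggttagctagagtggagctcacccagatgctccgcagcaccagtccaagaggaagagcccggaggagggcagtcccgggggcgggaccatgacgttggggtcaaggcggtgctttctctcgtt
Egln1: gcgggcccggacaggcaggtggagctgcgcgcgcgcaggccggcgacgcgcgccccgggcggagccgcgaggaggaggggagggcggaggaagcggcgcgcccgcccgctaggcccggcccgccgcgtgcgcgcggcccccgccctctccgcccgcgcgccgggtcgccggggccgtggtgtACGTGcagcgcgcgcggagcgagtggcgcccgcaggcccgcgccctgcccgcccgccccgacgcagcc
Bnip3: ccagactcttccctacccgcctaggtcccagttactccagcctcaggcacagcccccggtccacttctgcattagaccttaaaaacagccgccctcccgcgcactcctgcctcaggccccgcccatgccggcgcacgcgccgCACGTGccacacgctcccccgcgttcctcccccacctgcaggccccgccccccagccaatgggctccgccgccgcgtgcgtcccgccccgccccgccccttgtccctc
Tpi1: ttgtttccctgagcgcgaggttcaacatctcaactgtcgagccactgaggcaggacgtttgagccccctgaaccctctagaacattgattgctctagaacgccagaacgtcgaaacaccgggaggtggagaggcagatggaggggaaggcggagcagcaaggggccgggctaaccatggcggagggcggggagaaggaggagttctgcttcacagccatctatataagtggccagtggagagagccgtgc
These windows lie at chr12:54203875-54204124 (Egln3), chr8:124949255-124949504 (Egln1), chr7:138909507-138909756 (Bnip3) and chr6:124814159-124814408 (Tpi1). Egln3 has 1 match, which begins 229 bases before the start, and Egln1 has 1, at 68 bases. Bnip3 has the overlapping forms CACGT and ACGTG at 108 and 107 bases, and Tpi1 has none of these letters in this window. The other core, GCGTG on either strand, is left in small letters. It occurs 1 time in the Egln1 window, 3 times in that of Bnip3, and in neither the Egln3 nor the Tpi1 window.

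Windows were found for 31 of the 35 genes, all but Slc2a3, Ndrg1, Bhlhe40 and Epas1. Of 14 windows of the genes at least 2-fold lower in both knockdowns at day 4 (11 of the 12 such genes had one), 9 held ACGTG on either strand, which is 64.3%. Among 27 windows of the other members 13 did (48.1%), among 13771 windows of genes at or over an array median at day 4 20.9% did, and among all 32851 windows 16.6%. The other core, GCGTG on either strand, stood in 64.3%, 55.6%, 42.7% and 28.2% of the same windows, and some windows hold both. Windows with either core or both made up 85.7%, 81.5%, 53.8% and 38.6%. A match is a run of letters and was not tested as a binding site, and base composition was not matched between the sets.

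At day 4, glycolytic and hypoxia genes were mostly lower in both knockdowns than in control. In the Chd4 knockdown, 14 of 35 members were at least 2-fold lower, where 6.64% of 13733 genes compared were, and 2 members, Epas1 and Pfkp, were at least 2-fold higher, where 5.08% of genes were. In the Mbd3 knockdown 13 were at least 2-fold lower (4.89% of 13588 genes) and 1, Epas1, higher (3.44% of genes). The median log2 difference over the 35 members was -0.66 with the Chd4 hairpin and -0.60 with the Mbd3 hairpin, beside -0.04 and -0.06 over all genes compared. Both comparisons use the same control array. In all, 12 members were at least 2-fold lower in each knockdown, beside 4.57% of 13416 genes compared in both, and 1 was higher in each, beside 2.83%.

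**Figure D1:**
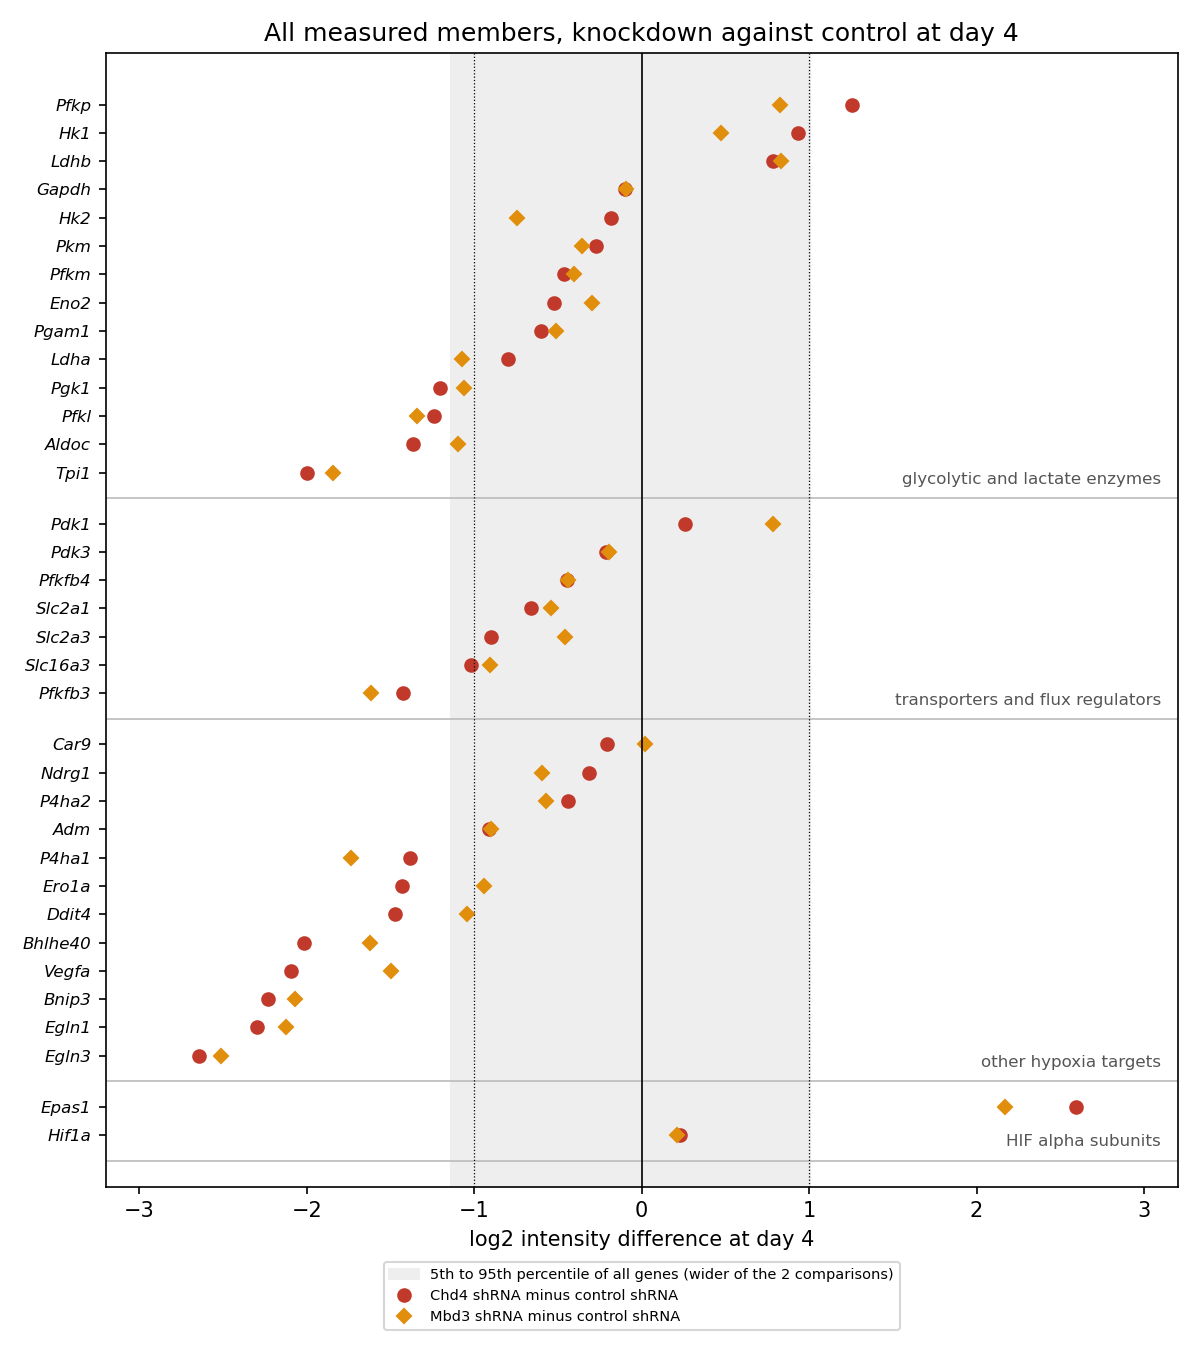
Log2 intensity difference from control at day 4 (horizontal axis) for each of the 35 measured members (rows, grouped by role), with circles for the Chd4 knockdown and diamonds for the Mbd3 knockdown. The grey band is the wider 5th to 95th percentile range of all genes compared, dotted lines mark 2-fold, and Egln3 stands lowest while Epas1 stands alone at the right.

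Among the glycolytic and lactate enzymes, 11 of 14 were lower than control in each knockdown at day 4, where 53.9% of all genes compared were lower for Chd4 and 55.9% for Mbd3. Past 2-fold lower were 4 under the Chd4 hairpin, beside 6.64% of all genes, and 5 under the Mbd3 hairpin, beside 4.89%. The medians were -0.49 and -0.46. Tpi1, triose phosphate isomerase, which interconverts the products of aldolase, was 3.99-fold lower under the Chd4 hairpin and 3.59-fold lower under the Mbd3 hairpin. Its intensity was 567.6 with the Chd4 hairpin and 630.1 with the Mbd3 hairpin, against 2264 in control at day 4, and 1071, 1111 and 1393 in the Chd4 knockdown, Mbd3 knockdown and control at day 0. Both day 4 knockdown arrays were therefore below the other 4 arrays, and the day 4 control was above them.

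Pgk1, phosphoglycerate kinase, which makes ATP from a glycolytic intermediate, read 1199 under the Chd4 hairpin and 1325 under the Mbd3 hairpin, against 2759 in control at day 4, and 2162, 1783 and 1892 in the Chd4 knockdown, Mbd3 knockdown and control at day 0. Aldoc, the brain form of aldolase, read 92.6 and 112 in the Chd4 and Mbd3 knockdowns, against 239 in control at day 4, and 234, 201 and 153 in the Chd4 knockdown, Mbd3 knockdown and control at day 0. For both genes the day 4 knockdown arrays were the lowest of the 6. Ldha, the lactate dehydrogenase subunit of glycolytic tissues, stood at 130.0 under the Chd4 hairpin and 108 under the Mbd3 hairpin, against 226 in control at day 4, and at 190, 170.4 and 172 in the Chd4 knockdown, Mbd3 knockdown and control at day 0.

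The phosphofructokinase genes, whose product commits sugar to glycolysis, differed in direction. Pfkl, the liver form, read 363 and 339 in the Chd4 and Mbd3 knockdowns, against 858 in control at day 4, and 716, 579.7 and 583 in the Chd4 knockdown, Mbd3 knockdown and control at day 0. Pfkp, the platelet form, read 1042 and 774 in the Chd4 and Mbd3 knockdowns, against 437 in control at day 4, and 1998, 1202 and 1004 in the Chd4 knockdown, Mbd3 knockdown and control at day 0. Pfkl was thus highest and Pfkp lowest in control at day 4. Pfkm, the muscle form, stayed between 98.1 and 181 on the 6 arrays.

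The other 2 enzymes that stood higher than control in both knockdowns at day 4 were Hk1, a hexokinase, at log2 differences of 0.93 under the Chd4 hairpin and 0.48 under the Mbd3 hairpin, and Ldhb, the lactate dehydrogenase subunit typical of oxidative tissues, at 0.78 and 0.83. Hk2, the hexokinase known as a HIF target, was at -0.18 and -0.75. Pgam1, Eno2 and Pkm, which carry the last steps to pyruvate, were at -0.27 to -0.60 under the Chd4 hairpin and at -0.30 to -0.51 under the Mbd3 hairpin. A second probe set of Pgam1 gave -0.67 and -0.83. By brightest probe sets Gapdh varied least of the 35, with a span of 1.07-fold over the 6 arrays. It read 5421 and 5438 in the Chd4 and Mbd3 knockdowns, against 5810 in control at day 4. Its mean intensity was above that of 99.96% of genes. The other probe sets of Gapdh gave -0.11 and -0.48 under the Chd4 hairpin and -0.08 and -0.10 under the Mbd3 hairpin.

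The transporters and flux regulators were lower in 6 of 7 cases in each knockdown at day 4, beside the same 53.9% and 55.9% of all genes, with medians of -0.66 under the Chd4 hairpin and -0.46 under the Mbd3 hairpin. Pfkfb3, whose product makes the sugar bisphosphate that activates phosphofructokinase, read 55.2 and 48.2 in the Chd4 and Mbd3 knockdowns, against 148 in control at day 4, and 74.5, 71.1 and 69.5 in the Chd4 knockdown, Mbd3 knockdown and control at day 0. The day 4 control thus stood above the other 5 arrays, which lay between 48.2 and 74.5. Slc16a3, which exports lactate, read 198 and 215 in the Chd4 and Mbd3 knockdowns, against 403 in control at day 4, and 272, 212 and 200.1 in the Chd4 knockdown, Mbd3 knockdown and control at day 0.

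The glucose carriers Slc2a1 and Slc2a3 were at log2 differences of -0.66 and -0.90 under the Chd4 hairpin and -0.54 and -0.46 under the Mbd3 hairpin at day 4. Pfkfb4, a paralog of Pfkfb3, was at -0.44 in each. Of the kinases that hold pyruvate back from the mitochondrial dehydrogenase, Pdk3 was at -0.22 and -0.19, and Pdk1, a known HIF target, was on the other side, at 0.26 and 0.78.

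The other hypoxia targets held the most members past 2-fold. At day 4, 8 of 12 were at least 2-fold lower under the Chd4 hairpin, beside 6.64% of all genes compared. Under the Mbd3 hairpin 7 of 12 were, beside 4.89% of all genes compared. The medians were -1.45 and -1.27. Egln3, a prolyl hydroxylase that is itself induced by HIF, was 6.25-fold lower under the Chd4 hairpin and 5.70-fold lower under the Mbd3 hairpin. It read 58.9 and 64.6 in the Chd4 and Mbd3 knockdowns, against 368 in control at day 4, and 198, 289 and 216 in the Chd4 knockdown, Mbd3 knockdown and control at day 0. Egln1, the main prolyl hydroxylase of HIF alpha, read 121 and 136 in the Chd4 and Mbd3 knockdowns, against 594 in control at day 4, and 167, 121 and 129 in the Chd4 knockdown, Mbd3 knockdown and control at day 0. Egln1 in the day 4 knockdowns was near its day 0 level, whereas Egln3 was below it.

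Bnip3, a mitochondrial protein of mitophagy, read 72.4 and 81.1 in the Chd4 and Mbd3 knockdowns, against 341 in control at day 4, and 190.3, 160.4 and 146 in the Chd4 knockdown, Mbd3 knockdown and control at day 0. Vegfa, the vascular growth factor, read 83.0 and 125 in the Chd4 and Mbd3 knockdowns, against 354 in control at day 4, and 199, 145 and 129 in the Chd4 knockdown, Mbd3 knockdown and control at day 0. In both genes the day 4 knockdowns were the lowest and the day 4 control the highest arrays. Bhlhe40, a basic helix-loop-helix repressor, read 143 and 187 in the Chd4 and Mbd3 knockdowns, against 577.5 in control at day 4, and 550.2, 446 and 472 in the Chd4 knockdown, Mbd3 knockdown and control at day 0. Here the day 4 control was close to the day 0 arrays and the day 4 knockdowns alone stood apart.

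P4ha1, a subunit of the collagen prolyl hydroxylase, read 175 and 137 in the Chd4 and Mbd3 knockdowns, against 456 in control at day 4, and 266, 175 and 162 in the Chd4 knockdown, Mbd3 knockdown and control at day 0. Ero1a, an oxidase that helps form disulfide bonds in the endoplasmic reticulum, read 339 and 476 in the Chd4 and Mbd3 knockdowns, against 912 in control at day 4, and 920, 684 and 550.3 in the Chd4 knockdown, Mbd3 knockdown and control at day 0. Its second probe set gave -1.08 and -0.52 in the Chd4 and Mbd3 knockdowns at day 4, where the first gave -1.43 and -0.94. Ddit4, an inhibitor of mTOR signaling, read 186 and 250.4 in the Chd4 and Mbd3 knockdowns, against 515 in control at day 4, and 191, 342 and 152 in the Chd4 knockdown, Mbd3 knockdown and control at day 0. Its day 4 knockdown values lay within the range of its day 0 values.

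The remaining 4 targets were dim or moved less. P4ha2 and Ndrg1 were at -0.44 and -0.32 under the Chd4 hairpin and -0.57 and -0.60 under the Mbd3 hairpin at day 4. Adm, the vasodilator peptide adrenomedullin, read 28.5 and 28.7 in the Chd4 and Mbd3 knockdowns, against 53.6 in control at day 4, and exceeded the highest array median, 41.4, on that array alone. Car9, a carbonic anhydrase often used as a hypoxia marker, stayed between 34.7 and 42.7 on all arrays.

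The HIF alpha subunits were not lower in the knockdowns at day 4 by their brightest probe sets. Hif1a was between 510 and 718 on the 6 arrays, with 718 and 709 in the Chd4 and Mbd3 knockdowns, against 613 in control at day 4. Its dimmer second probe set gave -0.49 and -0.56 where the first gave 0.23 and 0.21, so its direction depends on the probe set. Epas1, which encodes the other alpha subunit, read 349.7 and 261 in the Chd4 and Mbd3 knockdowns, against 58.0 in control at day 4, a 6.03-fold and a 4.50-fold difference. At day 0 it read 151 and 145 in the Chd4 and Mbd3 knockdowns, against 346 in control, so the sign of its difference from control was opposite on the 2 days. Transcript levels do not show HIF protein, which is set mainly by its stability.

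**Figure D2:**
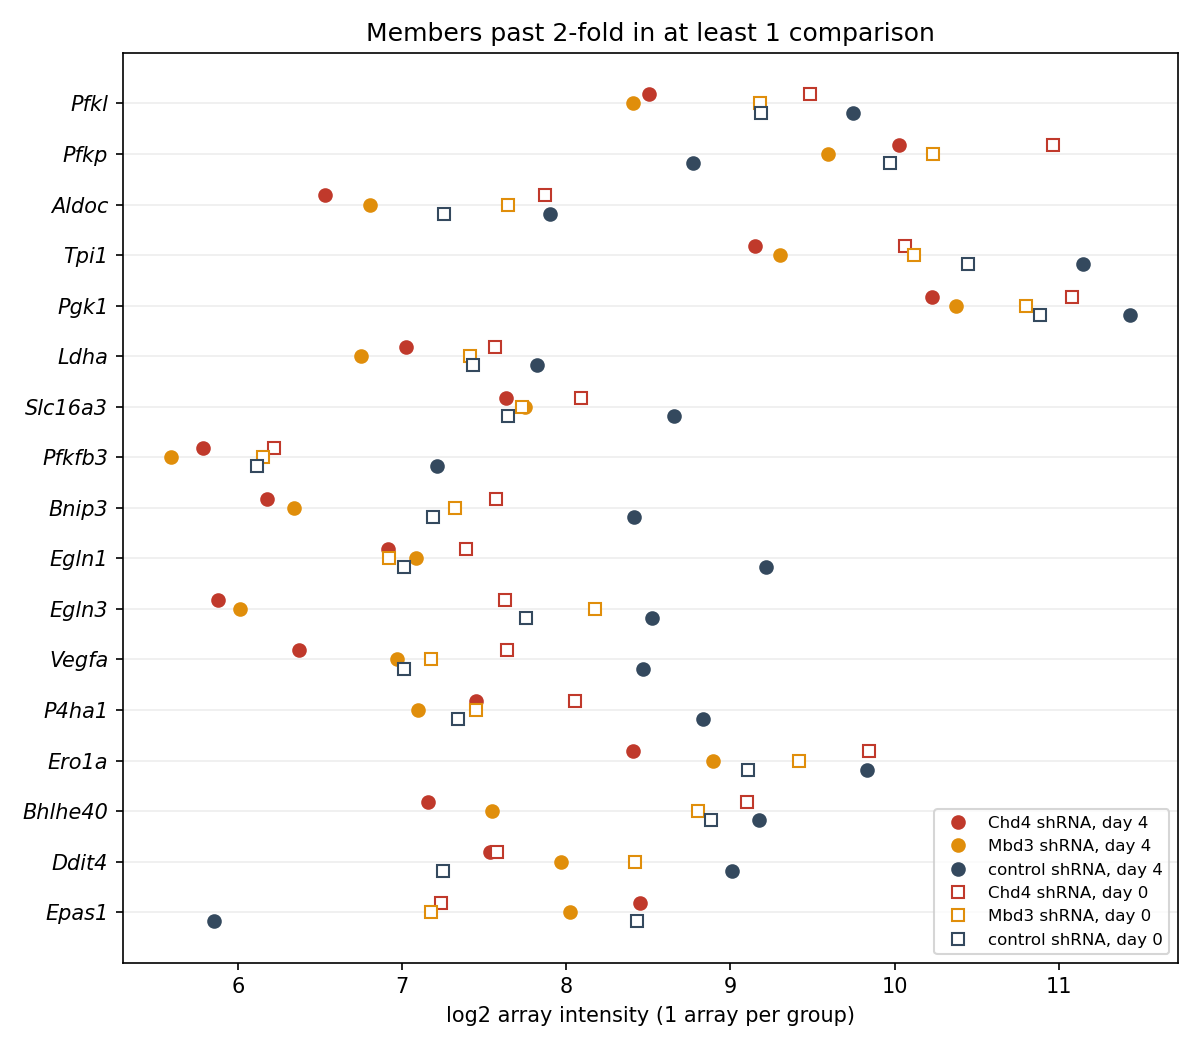
Log2 array intensity (horizontal axis) of the 17 members past 2-fold in at least 1 of the 7 comparisons against control or between days (those between the knockdowns are left out), 1 point per array, with filled circles for day 4 and open squares for day 0. The day 4 control (dark filled circle) is the rightmost point for most genes and the leftmost for Epas1 and Pfkp.

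On the day 4 control array 22 of the 35 members (62.9%) had their highest value of the 6 arrays, and 4 (Hk1, Pfkp, Ldhb and Epas1) their lowest. Of 13037 genes bright enough for a test (mean at or over the median probe set), 33.1% were highest and 29.1% lowest on that array. For 17 members (48.6%) both day 4 knockdown arrays were below all 4 other arrays, a pattern shown by 9.80% of those genes. The 17 included Gapdh and Pkm, whose whole spans were 1.07-fold and 1.32-fold. Adm and Car9 are counted in the 35 though too dim to be among the 13037 genes, and Adm is 1 of the 22.

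At day 0 few of these genes were past 2-fold from control. In the Chd4 knockdown 0 of 33 members compared were at least 2-fold higher (0.692% of all genes) and 1, Epas1, at -1.20, was at least 2-fold lower (0.565% of all genes); Pfkp, at 0.99, was just short. In the Mbd3 knockdown 1 of 34, Ddit4 at 1.17, was at least 2-fold higher (0.366% of all genes) and 1, Epas1 at -1.26, lower (0.314% of all genes). The member medians were 0.19 and 0.09, beside -0.01 and -0.002 over all genes. Of the other hypoxia targets compared, 1 of 10 was lower than control in the Chd4 knockdown, with a median of 0.35 and beside 51.3% of all genes lower. In the Mbd3 knockdown 4 of 11 were lower, with a median of 0.13 and beside 50.3% of all genes.

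Day 4 was then set against day 0 within each line. In the Chd4 knockdown 6 of 33 members, Bhlhe40, Egln3, Ero1a, Bnip3, Aldoc and Vegfa, were at least 2-fold lower at day 4 (1.16% of all genes) and 1, Epas1, was higher (1.7% of all genes). In the Mbd3 knockdown 2 of 34, Egln3 at -2.16 and Bhlhe40 at -1.25, were at least 2-fold lower (1.1% of all genes) and 0 higher (1.6% of all genes). In control 7 of 35, Egln1, Ddit4, P4ha1, Vegfa, Bnip3, Pfkfb3 and Slc16a3, were at least 2-fold higher (8.13% of all genes) and 2, Epas1 and Pfkp, lower (4.7% of all genes).

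The medians over the members compared were -0.54 in the Chd4 knockdown, -0.31 in the Mbd3 knockdown and 0.48 in control, beside -0.01, -0.03 and 0.003 over all genes. For the other hypoxia targets they were -1.01, -0.36 and 0.80, for the enzymes -0.58, -0.41 and 0.31, and for the transporters and flux regulators -0.10, 0.02 and 0.49. Egln1 had the largest positive difference in control among the members, 2.20, and Epas1 the largest negative one, -2.58. Egln1 was at -0.47 under the Chd4 hairpin and 0.17 under the Mbd3 hairpin. Of the 35 members, 18 (51.4%) were lower at day 4 in both knockdowns and higher in control, as were 12.1% of 13037 genes bright enough for a test. The reverse held for 2 (5.71%), Pdk1 and Epas1, and for 9.15% of those genes. Adm and Car9 are again counted in the 35 and not in the 13037. The knockdown pairs share no array with the control pair.

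**Figure D3:**
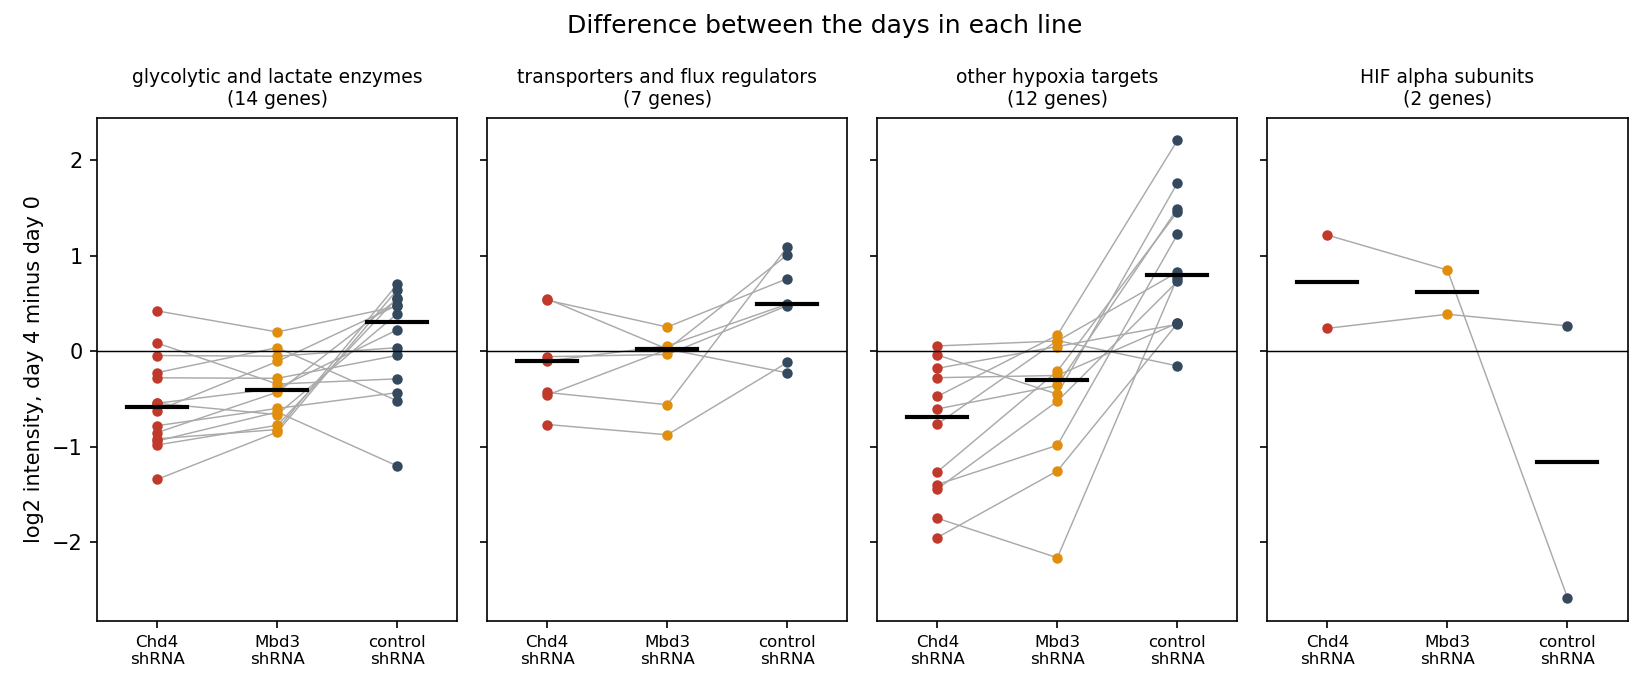
Log2 intensity at day 4 minus day 0 (vertical axis) in the Chd4 knockdown, Mbd3 knockdown and control, in 1 panel per role; each point is a gene, grey lines join the same gene, and black bars are medians over every gene drawn, dim pairs included, so the hypoxia target bars in the knockdowns differ from the medians over compared genes in the text. Most hypoxia targets lie below 0 in the Chd4 knockdown and above 0 in control, and Epas1 runs the other way.

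The knockdowns were also set against each other, a comparison added after the data were seen. At day 4, 0 of 34 members were at least 2-fold higher in the Chd4 than in the Mbd3 knockdown (0.923% of all genes) and 0 lower (0.18% of all genes), and the differences ran from -0.60 (Vegfa) to 0.56 (Hk2). At day 0, Ndrg1 was 1.15 higher (past 2-fold upward in 0.586% of all genes) and Pdk1 was at -1.05 (past 2-fold downward in 0.466%).

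limma was then fitted to all 6 arrays over 13037 genes, 33 of them members, since Adm and Car9 were too dim. With one term for either knockdown at each day, the difference between the Chd4 and Mbd3 arrays counts as error, with 2 residual degrees of freedom. These are different knockdowns and no replicates of each other, and the lone control array of each day is assumed to vary as they do. The p-values thus measure spread between arrays of the 2 knockdowns and not between cultures. At day 4, 14 members were lower than control and 2 higher at an adjusted p under 0.05, beside 7.79% of all genes lower and 4.2% higher. Lower among the hypoxia targets were Egln3, Egln1, Bnip3, Vegfa, Bhlhe40, P4ha1 and Ero1a. Lower among the enzymes were Tpi1, Pfkl, Aldoc, Pgk1 and Ldha, and Pfkfb3 and Slc16a3 were lower as well. Those higher than control were Epas1 and Ldhb. With all 22180 genes tested, 6 of these 16 missed the threshold: Ero1a (adjusted p = 0.12), P4ha1 (adjusted p = 0.086), Vegfa and Slc16a3 (adjusted p = 0.078 each), Ldha (adjusted p = 0.065) and Ldhb (adjusted p = 0.054). Ero1a also missed it with 16 subtracted from each intensity, with quantile normalization and with averaged probe sets.

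Egln3 was lower than control at day 4 by 2.58 ± 0.25 on the log2 scale (SE, adjusted p = 0.0065, limma), with both knockdown arrays lower. Tpi1 was lower by 1.92 ± 0.16 (adjusted p = 0.0050, limma) and Pfkfb3 by 1.52 ± 0.16 (adjusted p = 0.0076, limma). Epas1 was higher than control by 2.38 ± 0.21 (adjusted p = 0.0054, limma) and Ldhb by 0.81 ± 0.16 (adjusted p = 0.035, limma). Ddit4, at -1.26 ± 0.37, was past 2-fold in both knockdowns and was not called (adjusted p = 0.088, limma), and Pfkp, at 1.04 ± 0.34, was not called either (adjusted p = 0.11, limma). Hif1a stood at 0.22 ± 0.16 and Gapdh at -0.10 ± 0.15.

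**Figure D4:**
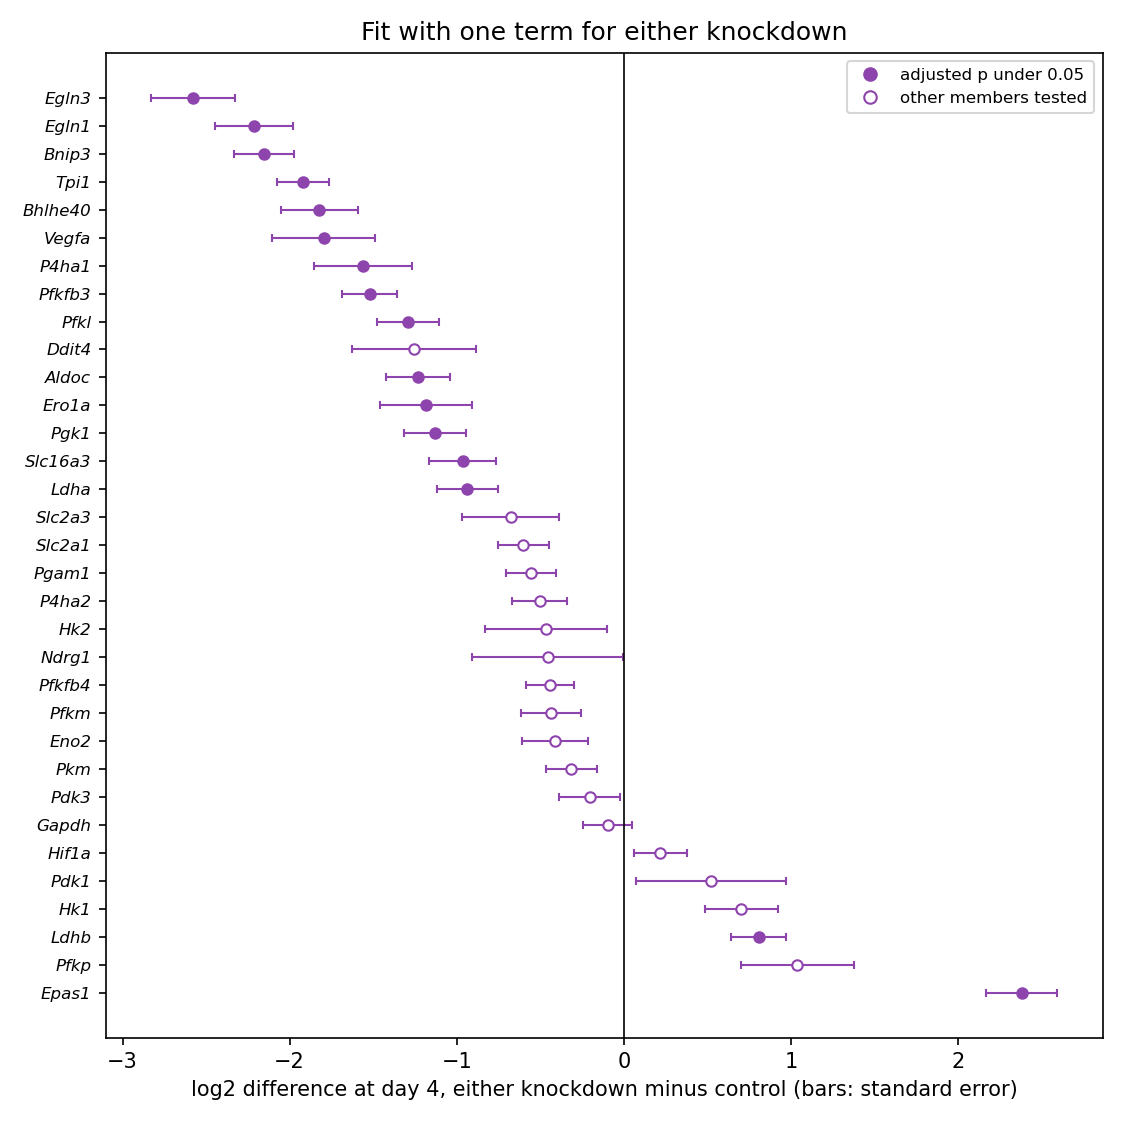
Log2 difference at day 4, either knockdown minus control (horizontal axis), for the 33 members tested, with standard errors as bars and filled points for an adjusted p under 0.05 in limma. The 14 members called lower and the 2 called higher are filled. Ddit4 and Pfkp have wide bars and are open.

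The same fit tested whether the difference between the days in the knockdowns departed from that in control. For 7 members it did, beside 2.61% of all genes: Egln3, Bnip3, Egln1, Aldoc, Pfkfb3 and Tpi1 lower (1.74% of all genes were) and Epas1 higher (0.867% of all genes were). The size was -2.72 ± 0.35 for Egln3 (SE, adjusted p = 0.033, limma) and 3.61 ± 0.30 for Epas1 (adjusted p = 0.031, limma). With all 22180 genes tested in place of 13037, none of the 7 was called.

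An additive limma fit of shRNA and day, in which a knockdown effect that differs between the days counts as error, called 0 of 33 members and 0 of 13037 genes for the day, the Chd4 or the Mbd3 term. At an unadjusted p under 0.05, 5, 5 and 6 members passed, and 1978, 1023 and 650 genes in all. Pfkp was among them for each term, with log2 differences of -0.92 ± 0.15 for the day, 1.12 ± 0.19 for Chd4 and 0.54 ± 0.19 for Mbd3 (SE, adjusted p = 0.18, 0.61 and 0.84, limma).

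Other genes of the pathways were taken from a list of 78, of which 70 were measured. At day 4, 10 of the 65 compared were at least 2-fold lower under the Chd4 hairpin (15.4%, beside 6.64% of all genes) and 8 under the Mbd3 hairpin (12.3%, beside 4.89%). At least 2-fold higher were 5 (7.69%, beside 5.08%) and 2 (3.08%, beside 3.44%), and the medians were -0.19 and -0.23. Lower in both were Narf, at -1.46 and -1.44 in the Chd4 and Mbd3 knockdowns, Fam162a, at -1.17 and -1.48, the transferrin receptor gene Tfrc, at -1.15 and -1.39, and the glycogen synthase gene Gys1, at -1.19 and -1.02. Stc1, which encodes the hormone stanniocalcin, was lower by at least 1.30 in each and Epo, erythropoietin, by at least 0.82. These bounds are taken against 41.4 because the knockdown intensities of both genes were below that median. Both genes were compared because the control array reached its median, and both are counted above by their measured intensities. The bound for Epo is short of 2-fold.

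Arnt2, a neural partner of HIF alpha subunits, read 76.9 and 101 in the Chd4 and Mbd3 knockdowns, against 306 in control at day 4. Its log2 differences were -1.99 and -1.60. Hmox1, heme oxygenase, and Ppfia4 were at least 2-fold higher in both knockdowns, at 1.14 and 1.39 under the Chd4 hairpin and 1.16 and 1.13 under the Mbd3 hairpin. Between the days in control, 9 of 66 genes of this list passed 2-fold upward at day 4 (13.6%, beside 8.13% of all genes) and 3 downward (4.55%, beside 4.7%), with Arnt2 at 2.40, the glycogen phosphorylase gene Pygl at 1.48 and Narf at 1.34 among the higher. Tigar, a phosphatase that lowers glycolytic flux, was at -1.50, Hmox1 at -1.44 and Mpc1, a subunit of the mitochondrial pyruvate carrier, at -1.17.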

How the data were processed

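Total RNA of 6 samples, 1 per group, was read on Mouse Gene 2.0 ST arrays. The deposited files hold linear intensities, made by the authors with RMA per the submitters' processing notes; the series design text names GeneSpring GX 12.6.1. Intensities ran from 17.4 to 7980. They were used as log2, not rescaled. Of 34351 probe sets, 23521 carried 1 symbol, 1814 several and 9016 none; symbols were updated through RefSeq GRCm38.p6 (23328 matched), which also gave the upstream sequences. The probe set with the highest mean stood for each of 22180 genes; 8 members had several. A gene was compared where the brighter array reached its own median, and past 2-fold means a log2 difference of 1 or more. Where a dimmer value lay under 41.4, the highest array median, differences given as "at least" are taken against it. limma 3.58.1 (R 4.3.3) tested genes with a mean at or over that of the median probe set, with Benjamini-Hochberg adjustment. The fits were also run on simulated data in which all 6 arrays varied alike. Such data cannot check the assumption that the lone control array varies as the knockdown arrays do. Python 3.11.15, numpy 2.4.6, pandas 2.3.3 and matplotlib 3.10.9 did the rest. Every member may be named; those past 2-fold in any of 7 comparisons are given on every array, and genes of the wider list where past 2-fold in both knockdowns at day 4 or between the days in control. Members, lists and tests were chosen with earlier results of these data known. Alternatives were an offset, a floor, quantile normalization, averaged probe sets, no filter and a variance trend. The spread between cultures is not measured.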

Additional observations from a re-analysis of the deposited data

Results flagged for a closer look

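In 7 members the difference between day 4 and day 0 in the 2 knockdowns departed from that in control (interaction term, limma, adjusted p under 0.05). The knockdown difference minus the control difference was -2.72 for Egln3, -2.41 for Bnip3, -2.36 for Egln1, -1.74 for Aldoc, -1.59 for Pfkfb3, -1.57 for Tpi1 and 3.61 for Epas1, each in the same direction in both knockdowns. Single-array values for Egln3 were -2.52 (Chd4 knockdown) and -2.93 (Mbd3 knockdown), and for Epas1 3.79 and 3.43. Each rests on 1 control array per day.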

How the results depend on the processing

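The labels give no replicate numbers, so arrays could be paired only by line. The days are matched by line, and the additive limma fit, which holds the line as a term, called 0 genes for the day (1978 at an unadjusted p under 0.05). With 1 array per group no replicate could be left out. Of 95 recomputed counts of members, 91 stayed within 1.5 times. An unchanged count of 0 was scored as staying, as were the additive-fit counts, which were 0 in every alternative. Several 2-fold counts were also small, so the share that stayed says little about them. The count at least 2-fold higher in the Chd4 knockdown at day 0, 0 as reported, was 1 with 16 subtracted before log2 and 1 with quantile normalization. The count of members with a departing day difference, 7 as reported, was 4 with 16 subtracted and 0 with all genes tested; the adjustment then runs over 22180 genes. The day 4 count of 16 in the fit with one term for either knockdown was 11 to 18 over the alternatives. The 51 member differences past 2-fold kept their direction, and 2 dropped under 2-fold with quantile normalization. The other alternatives could change little here. Subtracting 16 can only widen a fold, and every intensity of these genes lay above the floor of 41.4. Averaging probe sets alters only Ero1a among them, so quantile normalization alone could have changed the rest. The adjusted p for Egln3 at day 4 ranged from 0.0051 to 0.032 and for Ero1a from 0.040 to 0.12. With 16 subtracted, 4 of 23 gene calls in that fit missed the threshold, and with all genes tested 13 did. Genes near the array median, such as Adm and Car9, are limited by signal over background. Over all genes, with 16 subtracted, the count at least 2-fold lower in the Mbd3 knockdown at day 4 was 1029 in place of 665. At day 0 the counts became 189 higher and 135 lower in place of 93 and 76 for the Chd4 knockdown, and 122 and 84 in place of 49 and 42 for the Mbd3 knockdown. Between the days they became 404 higher and 237 lower in place of 228 and 155 in the Chd4 knockdown, and 381 and 259 in place of 213 and 147 in the Mbd3 knockdown. The genes called with a departing day difference were 340 as reported, 181 with 16 subtracted and 0 with all genes tested, and the day 4 calls were 1564 as reported and 1008 with all genes tested.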
